A study of Mus musculus with 9 samples.

Results

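The 10 genes described here regulate how many mitochondria a cell makes and how these fuse and divide. They are Ppargc1a, Ppargc1b, Esrra, Esrrg, Nrf1 and Tfam, which act in mitochondrial biogenesis, and Mfn1, Mfn2, Opa1 and Dnm1l, which act in mitochondrial dynamics. A probe set was taken as a member when the platform annotation gave it a single gene symbol and that symbol was one of these names. Each gene had 1 such probe set, so there were 10 members among 22180 genes with such a probe set (23521 of 33793 probe sets had a single symbol), and all 10 passed the filter on dim probe sets. Their mean signal over all hearts lay above 5.21, the median over the whole array, and 13650 probe sets met that condition.

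Signal was measured on 9 arrays, 1 mouse heart each, all at 2 months of age, in 3 genotypes with 3 hearts each. Col4a3-/-OPN-/- mice lack both a chain of type IV collagen and osteopontin (OPN, encoded by Spp1), a secreted glycoprotein that binds integrins. Col4a3-/- mice lack the collagen chain alone, the defect that models Alport syndrome (a kidney disorder passed on in families), and wild type mice lack neither. The labels give whole snap frozen hearts and no sex or litter, so the p-values below measure the spread between these hearts, and a lower signal of a gene in fewer cells of a type cannot be told apart from less of its RNA per cell. The values are log2 signals from robust multi-array averaging (RMA), a method that corrects background, normalizes across arrays and sums up the probes of each set. The labels name a labelling kit made for small RNA while the probe annotation is that of a gene array, so how the RNA was labelled is uncertain.

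PGC-1alpha and PGC-1beta, the products of Ppargc1a and Ppargc1b, bind no DNA themselves. They are coactivators that dock on transcription factors such as the estrogen-related receptors ERRalpha and ERRgamma (Esrra and Esrrg) and nuclear respiratory factor 1 (Nrf1). These factors switch on nuclear genes of respiration, among them Tfam, whose product packs mitochondrial DNA and helps start its transcription. The dynamin-like GTPases Mfn1 and Mfn2 join outer mitochondrial membranes and Opa1 joins inner membranes, while the GTPase DRP1 (Dnm1l) constricts and divides mitochondria. Heart muscle, which draws most of its energy from fat oxidation, has dense and regularly placed mitochondria, and these genes act in their upkeep.

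The 250 bases before the transcription start are shown for 4 members. Ppargc1a and Mfn2 are the members with an unadjusted p under 0.05 in limma's F-test for any difference among the genotypes, and Tfam and Opa1 hold letters that match sites of factors through which PGC-1 coactivators are known to act. The sequences are from RefSeq, build GRCm38.p6, and run 5′ to 3′ on the strand of the gene, with motif matches in capitals. They lie at chr5:51567726-51567975 (minus strand, Ppargc1a), chr4:147904910-147905159 (minus strand, Mfn2, 1 of 3 starts), chr10:71238045-71238294 (minus strand, Tfam) and chr16:29579084-29579333 (plus strand, Opa1).
Ppargc1a: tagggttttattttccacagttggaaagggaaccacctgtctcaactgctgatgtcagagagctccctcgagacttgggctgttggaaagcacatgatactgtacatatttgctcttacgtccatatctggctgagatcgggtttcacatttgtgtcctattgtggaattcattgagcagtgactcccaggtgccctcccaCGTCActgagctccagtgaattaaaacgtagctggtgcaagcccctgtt
Mfn2: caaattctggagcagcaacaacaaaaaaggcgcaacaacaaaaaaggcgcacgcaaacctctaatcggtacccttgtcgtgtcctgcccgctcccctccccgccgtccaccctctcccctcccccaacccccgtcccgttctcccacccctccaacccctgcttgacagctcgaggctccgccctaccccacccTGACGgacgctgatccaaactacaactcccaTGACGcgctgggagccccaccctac
Tfam: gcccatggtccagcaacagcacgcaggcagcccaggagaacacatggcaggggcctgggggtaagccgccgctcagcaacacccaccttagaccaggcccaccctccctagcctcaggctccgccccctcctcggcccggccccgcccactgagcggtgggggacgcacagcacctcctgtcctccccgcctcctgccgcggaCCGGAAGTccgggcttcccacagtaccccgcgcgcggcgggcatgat
Opa1: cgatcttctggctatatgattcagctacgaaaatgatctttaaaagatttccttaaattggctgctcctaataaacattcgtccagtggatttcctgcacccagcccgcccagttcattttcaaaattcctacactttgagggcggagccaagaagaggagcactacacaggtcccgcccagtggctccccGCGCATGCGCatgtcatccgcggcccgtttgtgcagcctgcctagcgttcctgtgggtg
Capitals mark a CRE half-site (TGACG, the letters bound by CREB) in Ppargc1a at position -49, written there as its reverse complement, and in Mfn2 at positions -56 and -25. In Tfam they mark an ETS site of the kind bound by GABP (CCGGAAGT) at -47. In Opa1 they mark the NRF1 core (GCGCATGCG) at -59, which overlaps a match on the opposite strand at -58.

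Promoter windows, each reaching from 250 bases before a start to shortly after it, were searched for 9 of the 10 members (that of Ppargc1b was not analysed here), 16 windows in all, for 5 motifs on both strands. The CRE half-site was found for 3 members (Mfn1, Mfn2 and Ppargc1a), in 5 of the 16 windows, of which those of Mfn2 overlap. It occurs in 20.8% of 32851 windows of the genome. The ETS site was found for 2 members (Mfn1 and Tfam), in 2 of the 16 windows, against 3.89% of windows. The NRF1 core stood before Opa1 alone among the 9, in 1 of the 16 windows, against 1.75% of windows. A MEF2 site (CTANNNNTAG) stood before Esrrg, in 1 of the 16 windows, against 3.69% of windows. The ERR half-site (TNAAGGTCA), found in 1.28% of windows, was in none of the members' windows. These are matches of letters and no measure of binding.

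Ppargc1a had signals of 10.26, 9.99 and 10.23 in Col4a3-/-OPN-/- hearts, 9.73, 10.14 and 9.44 in Col4a3-/- hearts, and 10.02, 10.28 and 10.65 in wild type hearts. The lowest heart of all was Col4a3-/- replicate 3 and the highest was wild type replicate 3, and Col4a3-/- replicate 2 lay above wild type replicate 1, so these groups overlapped. The Col4a3-/- mean was 9.77 ± 0.35 and the wild type mean 10.32 ± 0.32 (SD, n = 3 each), a log2 difference of -0.55 (95% confidence interval -0.98 to -0.11, 0.685-fold). It had the largest size of any member difference and an unadjusted limma p of 0.0181, but an adjusted p of 0.506 over all 13650 probe sets, so Ppargc1a did not pass the test. The log2 difference was 0.39 (-0.04 to 0.82, adjusted p = 0.42) between Col4a3-/-OPN-/- and Col4a3-/- hearts. It was -0.16 (-0.59 to 0.28, adjusted p = 0.999) between Col4a3-/-OPN-/- and wild type hearts.

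Ppargc1b, the second coactivator, had signals of 7.60, 7.49 and 7.03 in Col4a3-/-OPN-/- hearts, 6.96, 7.74 and 6.55 in Col4a3-/- hearts, and 7.37, 7.38 and 7.03 in wild type hearts. Both the highest and the lowest of the 9 hearts were Col4a3-/-, and all groups overlapped. Its SD of 0.60 in Col4a3-/- hearts was the largest of any member in any genotype. The log2 differences were -0.17 for Col4a3-/- against wild type (-0.77 to 0.43), 0.29 for Col4a3-/-OPN-/- against Col4a3-/- (-0.31 to 0.88) and 0.11 for Col4a3-/-OPN-/- against wild type (-0.48 to 0.71), and none passed the test. The interval of the first runs from 0.587-fold to 1.34-fold. Col4a3-/- replicate 2, where Ppargc1b was highest, also had the highest summed signal of 8 brown and white fat markers (13.5, against 12.7 in each of the other Col4a3-/- hearts) and of 5 lung markers (12.3, against 7.29 and 7.27). Most of that lung sum came from Scgb1a1, at 12.21 in that heart, with Sftpb next at 7.01. The same heart also had the highest sums of fibroblast (12.8), macrophage (11.3) and skeletal muscle (11.2) markers. Col4a3-/-OPN-/- replicate 1, second highest for Ppargc1b at 7.60, had the lowest fat sum of the 9 hearts (12.5). The part of these markers in the Ppargc1b signal was not tested.

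The estrogen-related receptors differed little between genotypes, with log2 differences from -0.07 to 0.05 over all 9 hearts. Esrra, the gene of ERRalpha, had 7.47, 7.55 and 7.33 in Col4a3-/-OPN-/- hearts, 7.73, 7.62 and 7.20 in Col4a3-/- hearts, and 7.43, 7.48 and 7.60 in wild type hearts. Esrrg, the gene of ERRgamma, had 7.55, 7.58 and 7.25 in Col4a3-/-OPN-/- hearts, 7.27, 7.52 and 7.45 in Col4a3-/- hearts, and 7.53, 7.53 and 7.39 in wild type hearts. Each genotype overlapped the others for both genes. The log2 difference of Esrra was 0.02 for Col4a3-/- against wild type, with an interval from 0.796-fold to 1.29-fold. That of Esrrg was -0.07, from 0.768-fold to 1.18-fold (adjusted p = 0.983 for Esrra and 0.909 for Esrrg). Between Col4a3-/-OPN-/- and Col4a3-/- hearts the differences were -0.07 for Esrra and 0.05 for Esrrg.

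Nrf1 had the opposite sign to the coactivators for Col4a3-/- against wild type. It had signals of 6.52, 6.49 and 6.43 in Col4a3-/-OPN-/- hearts, 6.47, 6.49 and 6.76 in Col4a3-/- hearts, and 6.31, 6.30 and 6.27 in wild type hearts. All 6 mutant hearts were above all 3 wild type hearts, and Col4a3-/- replicate 3 was the highest of the 9. Its log2 difference was 0.28 for Col4a3-/- against wild type (0.01 to 0.55, 1.22-fold, unadjusted p = 0.0417) and 0.19 for Col4a3-/-OPN-/- against wild type (-0.08 to 0.46), with limma adjusted p of 0.576 and 0.999. The wild type hearts, whose SD for Nrf1 was 0.02, are shared by both comparisons. Between the mutant genotypes the groups overlapped, and the difference was -0.09 (adjusted p = 0.769).

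Tfam had signals of 7.29, 6.93 and 6.83 in Col4a3-/-OPN-/- hearts, 6.82, 6.65 and 6.77 in Col4a3-/- hearts, and 6.73, 6.64 and 6.76 in wild type hearts. The 3 Col4a3-/-OPN-/- hearts were above the other 6, with replicate 1 well above its group and replicate 3 only just clear of Col4a3-/- replicate 1. Its log2 difference was 0.27 for Col4a3-/-OPN-/- against Col4a3-/- (-0.05 to 0.58, adjusted p = 0.449) and 0.30 for Col4a3-/-OPN-/- against wild type (-0.01 to 0.62, adjusted p = 0.999). Without Col4a3-/-OPN-/- replicate 1 these were 0.13 and 0.17. Col4a3-/- and wild type hearts differed by 0.04.

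**Figure D1:**
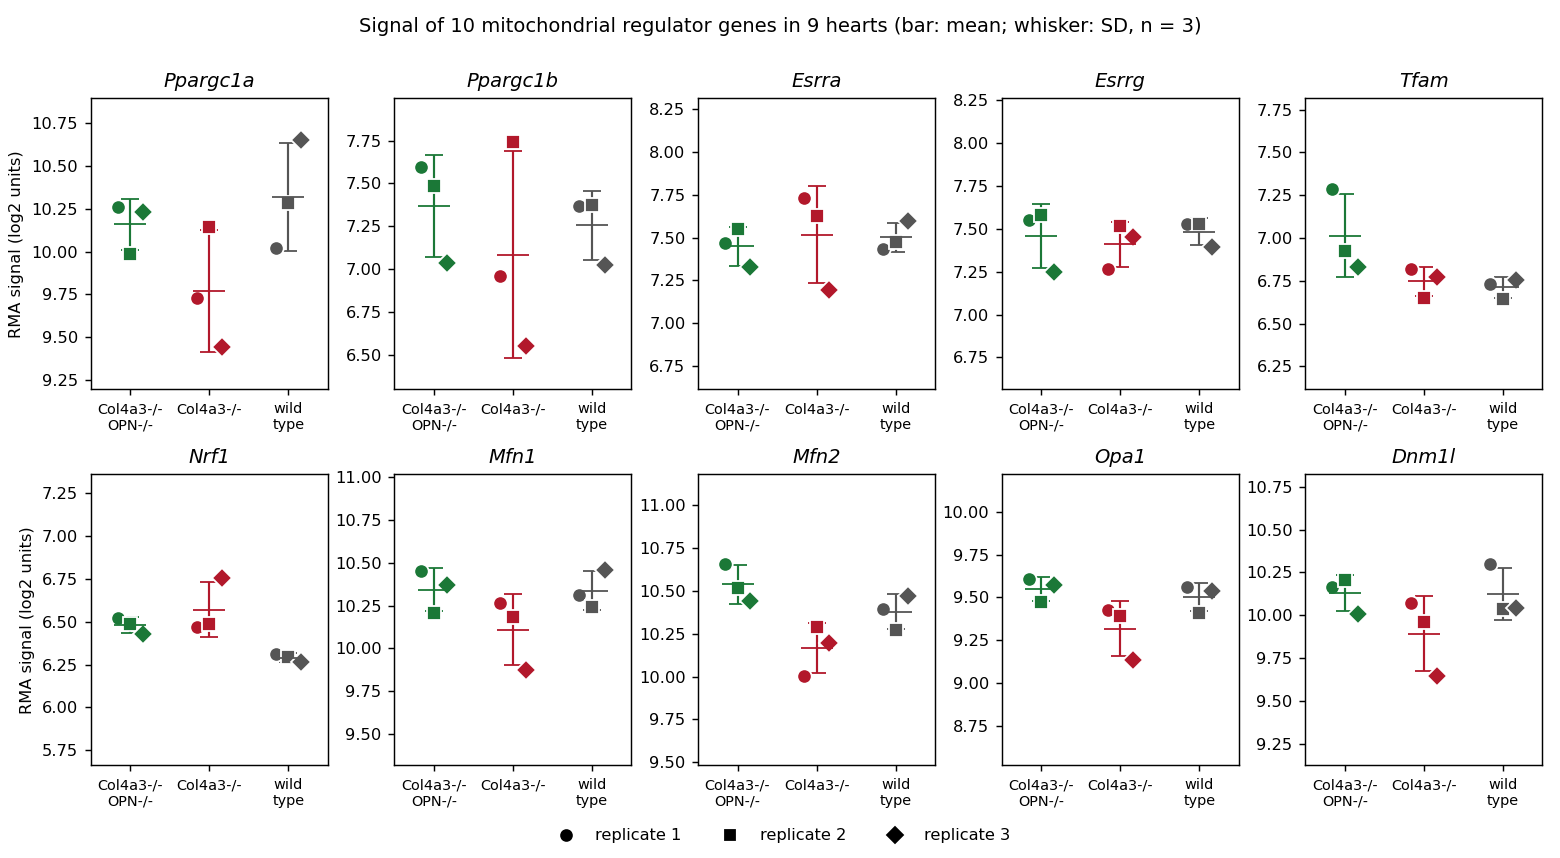
RMA signal (log2 units) of each of the 10 members by genotype, with 1 symbol per heart and replicate; horizontal bars are means and whiskers the SD (n = 3). Every panel spans the same number of log2 units around its own gene, and Col4a3-/- replicate 3 (diamond, middle group) is the lowest heart for 6 of the 10 genes.

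Of the fusion genes, Mfn2 had the smallest p of any member. Its signals were 10.66, 10.52 and 10.44 in Col4a3-/-OPN-/- hearts, 10.01, 10.29 and 10.20 in Col4a3-/- hearts, and 10.39, 10.27 and 10.47 in wild type hearts. All Col4a3-/-OPN-/- hearts were above all Col4a3-/- hearts, and the wild type hearts overlapped both. The Col4a3-/-OPN-/- mean was 10.54 ± 0.11 and the Col4a3-/- mean 10.17 ± 0.15 (SD, n = 3 each), a log2 difference of 0.37 (0.12 to 0.62, 1.29-fold, unadjusted p = 0.0076). Its limma adjusted p was 0.246, so this difference did not pass the test either. Mfn2 also had a log2 difference of -0.21 for Col4a3-/- against wild type (-0.47 to 0.04, adjusted p = 0.641) and of 0.16 for Col4a3-/-OPN-/- against wild type (-0.09 to 0.41, adjusted p = 0.999).

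Mfn1, the second outer membrane fusion GTPase, had signals of 10.45, 10.21 and 10.37 in Col4a3-/-OPN-/- hearts, 10.27, 10.19 and 9.87 in Col4a3-/- hearts, and 10.31, 10.24 and 10.46 in wild type hearts. Col4a3-/- replicate 3 stood below the other 8 hearts, and the genotypes overlapped. The log2 difference was -0.23 for Col4a3-/- against wild type (-0.51 to 0.06, adjusted p = 0.657) and 0.23 for Col4a3-/-OPN-/- against Col4a3-/- (-0.05 to 0.52, adjusted p = 0.461). Col4a3-/-OPN-/- and wild type hearts differed by 0.01, with an interval from 0.825-fold to 1.22-fold.

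Opa1, the inner membrane fusion gene, had signals of 9.61, 9.47 and 9.57 in Col4a3-/-OPN-/- hearts, 9.43, 9.39 and 9.13 in Col4a3-/- hearts, and 9.56, 9.41 and 9.54 in wild type hearts. The Col4a3-/-OPN-/- hearts were above all Col4a3-/- hearts, while wild type replicate 2 lay within the Col4a3-/- range. The log2 difference was 0.23 for Col4a3-/-OPN-/- against Col4a3-/- (-0.03 to 0.49, adjusted p = 0.424), -0.19 for Col4a3-/- against wild type (-0.45 to 0.08, adjusted p = 0.692) and 0.05 for Col4a3-/-OPN-/- against wild type.

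Dnm1l, the fission gene, had differences of like sign and size to Mfn1 and Opa1 where Col4a3-/- hearts were compared. Its signals were 10.17, 10.21 and 10.01 in Col4a3-/-OPN-/- hearts, 10.07, 9.96 and 9.65 in Col4a3-/- hearts, and 10.30, 10.04 and 10.04 in wild type hearts. Again Col4a3-/- replicate 3 was the lowest heart and the genotypes overlapped. The log2 difference was -0.23 for Col4a3-/- against wild type (-0.53 to 0.06, adjusted p = 0.665), 0.24 for Col4a3-/-OPN-/- against Col4a3-/- (-0.06 to 0.53, adjusted p = 0.48) and 0.00 for Col4a3-/-OPN-/- against wild type, with an interval from 0.814-fold to 1.23-fold.

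**Figure D2:**
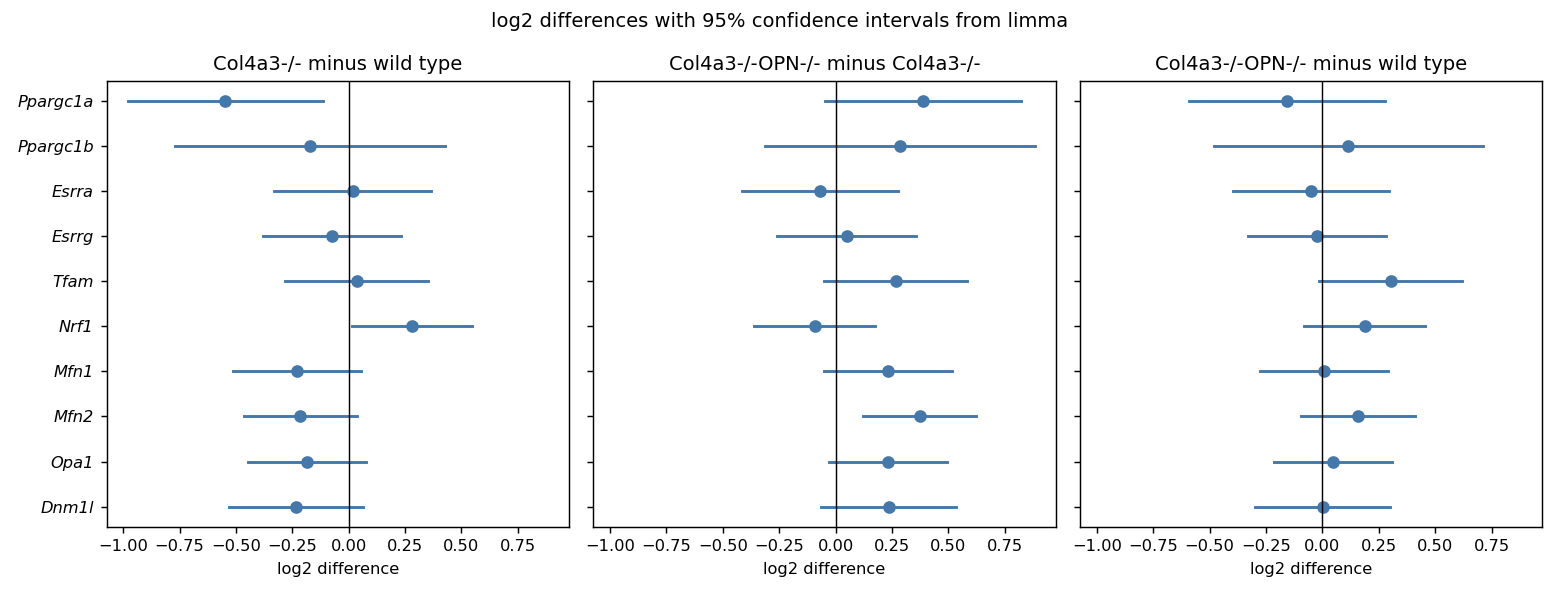
log2 differences of the 10 members (points) with 95% confidence intervals from limma (lines), 1 panel per comparison. The intervals clear 0 for Ppargc1a and Nrf1 in Col4a3-/- minus wild type and for Mfn2 in Col4a3-/-OPN-/- minus Col4a3-/-, before any adjustment for multiple tests.

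No member passed an adjusted p of 0.05 in any comparison, by limma fitted over all 9 hearts. The background was as bare, with 0% of all 13650 probe sets called for Col4a3-/- against wild type, 0.044% for Col4a3-/-OPN-/- against Col4a3-/- and 0% for Col4a3-/-OPN-/- against wild type. In a moderated F-test for any difference among the genotypes 0 of 10 members passed, against 0.0147% of probe sets. At an unadjusted p under 0.05 that test took 2 of 10 members, against 9.3% of probe sets. These were Mfn2 (limma adjusted p = 0.475) and Ppargc1a (limma adjusted p = 0.53).

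Counts at an unadjusted p under 0.05 were small in each direction. For Col4a3-/- against wild type 1 member was higher (Nrf1, background 2.39%) and 1 lower (Ppargc1a, background 5.96%). Against Col4a3-/- hearts, 1 member was higher in Col4a3-/-OPN-/- hearts (Mfn2, background 8.58%) and 0 were lower (background 5.03%). Against wild type hearts, 0 were higher in Col4a3-/-OPN-/- hearts (background 1.89%) and 0 lower (background 1.79%). Each count is 0 or 1 gene of 10.

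Groups that did not overlap were counted in the same way. For Col4a3-/- against wild type this held for 1 member that was higher (Nrf1, background 4.58%) and for 0 that were lower (background 7.9%). Set against Col4a3-/- hearts, Col4a3-/-OPN-/- hearts were higher without overlap for 3 members (Tfam, Mfn2 and Opa1, background 10.1%) and lower for 0 (background 6.48%). Set against wild type hearts they were higher for 2 members (Tfam and Nrf1, background 7.55%) and lower for 0 (background 5.65%).

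Read over the 10 members together, 3 had a positive difference for Col4a3-/- against wild type, and their median was -0.18, beside a median of -0.02 over all probe sets tested, of which 45% were positive. Between Col4a3-/-OPN-/- and Col4a3-/- hearts 8 were positive with a median of 0.24, beside a median of 0.04 and 57.7% positive. Between Col4a3-/-OPN-/- and wild type hearts 7 were positive with a median of 0.03, beside a median of 0.01 and 53.1% positive. The first and second comparisons share the Col4a3-/- hearts, so their values mirror each other in part by construction.

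A single heart carried much of these medians. Relative to the wild type mean of each gene, the median of the members was 0.11, 0.09 and -0.03 in the Col4a3-/-OPN-/- hearts, -0.07, -0.07 and -0.34 in the Col4a3-/- hearts, and 0.02, -0.05 and 0.04 in the wild type hearts. Col4a3-/- replicate 3 was thus far below the rest. It was the lowest of the 9 hearts for 6 of 10 members (Ppargc1a, Ppargc1b, Esrra, Mfn1, Opa1 and Dnm1l) and the highest for Nrf1. Over all probe sets tested the same heart was the lowest for 26.2% and the highest for 21.3%, so it stood apart on the whole array and in both directions. The median SD of the members was 0.12 in Col4a3-/-OPN-/- hearts, 0.19 in Col4a3-/- hearts and 0.09 in wild type hearts, while the fit shares 1 spread among the genotypes.

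**Figure D3:**
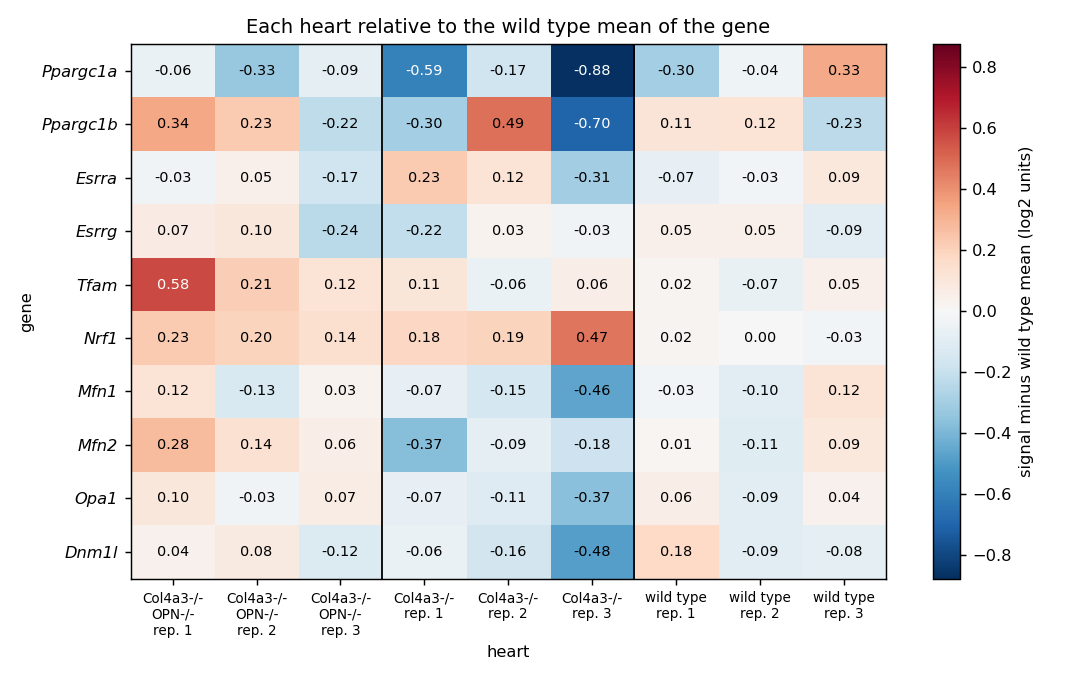
Signal of each member in each heart minus the wild type mean of that gene (log2 units, written in each cell), with blue for lower and red for higher. The column of Col4a3-/- replicate 3 reaches -0.88 for Ppargc1a and -0.70 for Ppargc1b, while Nrf1 stands at 0.47 in the same heart.

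Without Col4a3-/- replicate 3 the median of the members was -0.09 for Col4a3-/- against wild type and 0.11 for Col4a3-/-OPN-/- against Col4a3-/-. Ppargc1a then had a log2 difference of -0.38 against wild type (adjusted p = 0.704) and Nrf1 one of 0.19 (adjusted p = 0.778). Mfn1 came to -0.11 against wild type (limma adjusted p = 0.866), Opa1 to -0.09 (0.882) and Dnm1l to -0.11 (0.87). Esrra differed by 0.18 between Col4a3-/- and wild type (adjusted p = 0.81). For Col4a3-/-OPN-/- against Col4a3-/- hearts, Ppargc1a came to 0.22, Ppargc1b to 0.02, Mfn1 to 0.12, Opa1 to 0.14 and Dnm1l to 0.11 without that heart, each over 1.5 times smaller than with it, and Esrra came to -0.23. Mfn2 moved little in that comparison, at 0.39 (adjusted p = 0.279), and so did Tfam at 0.28. Leaving out Col4a3-/- replicate 2 took Ppargc1a to -0.73 against wild type (adjusted p = 0.253) and Ppargc1b to -0.50. Leaving out Col4a3-/- replicate 1 took Mfn2 to -0.13 against wild type.

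**Figure D4:**
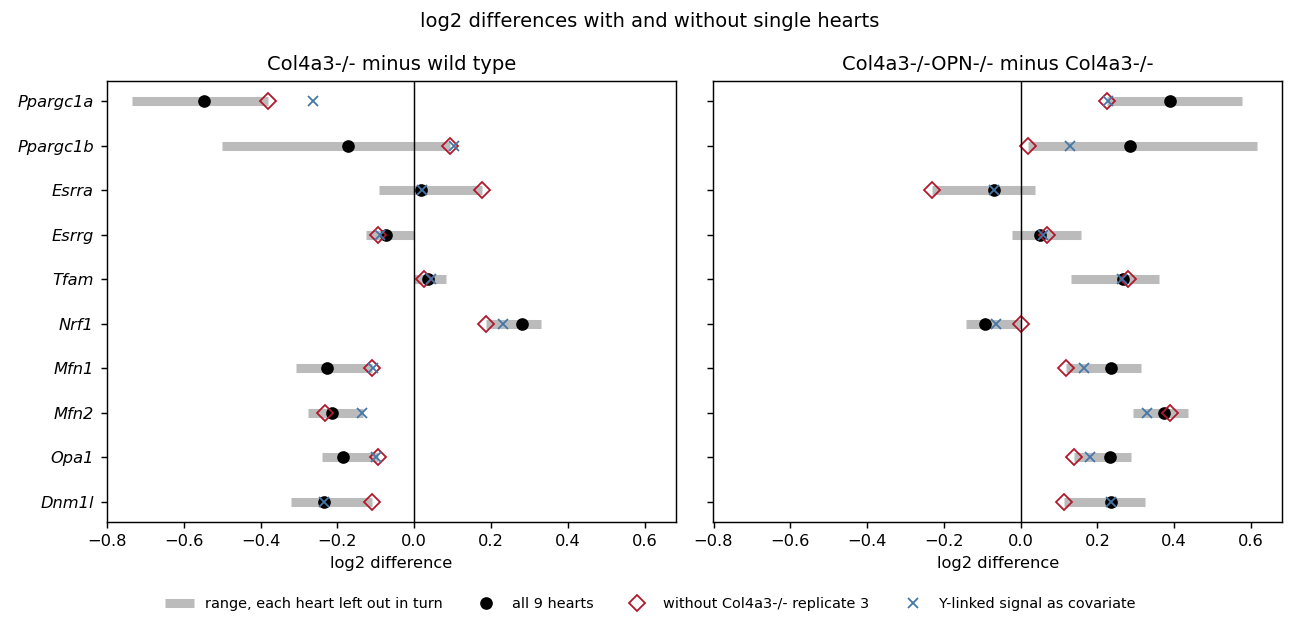
log2 differences of the 10 members in the comparisons that use Col4a3-/- hearts, with all 9 hearts (black), over the fits that leave out 1 heart each (grey range), without Col4a3-/- replicate 3 (red diamonds) and with Y-linked signal added to the model (blue crosses). Mfn2 lies between 0.29 and 0.44 over the grey range for Col4a3-/-OPN-/- minus Col4a3-/-, while Ppargc1b spans 0.02 to 0.61.

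Other signals differed between hearts as well, some along with genotype and some within a genotype. The mean of Y-linked genes was 7.40, 4.63 and 7.35 in the Col4a3-/-OPN-/- hearts, 4.64, 7.00 and 4.53 in the Col4a3-/- hearts and 7.19 to 7.36 in the wild type hearts, so the low hearts were all in the mutant groups. With this signal as a covariate, Ppargc1a differed by -0.26 between Col4a3-/- and wild type (SE 0.21, adjusted p = 0.966), Mfn1 by -0.11, Mfn2 by -0.14, Opa1 by -0.10 and Nrf1 by 0.23, of which all but Nrf1 were over 1.5 times smaller than without it. Between Col4a3-/-OPN-/- and Col4a3-/- hearts Ppargc1a then differed by 0.23 and Ppargc1b by 0.13, both over 1.5 times smaller than without it, and Mfn2 by 0.33 (adjusted p = 0.499). Dnm1l did not move with the covariate, at -0.23 for Col4a3-/- against wild type and 0.24 for Col4a3-/-OPN-/- against Col4a3-/-. Esrrg did not shrink either, at -0.09 and 0.06 in the same order. Without Col4a3-/-OPN-/- replicate 2, every remaining heart of that group and of the wild type had a high Y-linked signal, and Tfam then differed between them by 0.35 and Nrf1 by 0.18. The summed signal of 10 cardiomyocyte markers was 15.5 to 15.6 in Col4a3-/-OPN-/- hearts, 15.4 to 15.6 in Col4a3-/- hearts and 15.5 in wild type hearts, with all 10 above the array median, and the lowest heart was Col4a3-/- replicate 3. Its Actc1, the cardiac actin gene, stood at 12.17, against 12.94 and 12.91 in the other Col4a3-/- hearts. The sum of 8 fibroblast markers was 12.5 to 12.6 in Col4a3-/-OPN-/- hearts, 12.4 to 12.8 in Col4a3-/- hearts and 12.4 to 12.6 in wild type hearts. Within that list Col4a3-/- replicate 3 was the lowest heart for the collagen genes Col1a1 (6.50), Col1a2 (6.54) and Col3a1 (6.39) and for Lum (6.72) and Postn (6.64), which lay at 7.86 or above in every other heart, and the highest for Dcn (12.04). That of 8 smooth muscle and pericyte markers was 12.5 to 12.6 in Col4a3-/-OPN-/- hearts, 11.8 to 12.3 in Col4a3-/- hearts and 12.7 to 12.8 in wild type hearts. That of 7 atrial markers was 13.6 to 13.8 in Col4a3-/-OPN-/- hearts, 12.9 to 13.7 in Col4a3-/- hearts and 13.9 to 14.0 in wild type hearts. The 5 lung markers, of which 2 were above the array median, summed to 10.02, 7.17 and 9.75 in Col4a3-/-OPN-/- hearts and 7.33 to 7.72 in wild type hearts. In Col4a3-/-OPN-/- replicates 1 and 3 the lung sum was mostly Scgb1a1 (9.81 and 9.52), while Sftpc stood at 5.10 and 4.90. The part of all these signals in the members' values was not tested. The probe set of Col4a3 averaged below the array median (4.87 to 5.26 in Col4a3-/-OPN-/-, 4.96 to 5.27 in Col4a3-/- and 5.07 to 5.52 in wild type hearts), so it gives no check of the genotypes.

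The wider machinery around the members was read in 7 lists of 165 genes, of which 155 had a probe set with a single symbol and 152 were tested. None of the 152 was called in any comparison, against the same backgrounds as above. At an unadjusted p under 0.05, 0 were higher and 5 lower for Col4a3-/- against wild type (0% and 3.29%), 10 higher and 0 lower for Col4a3-/-OPN-/- against Col4a3-/- (6.58% and 0%), and 0 higher and 1 lower for Col4a3-/-OPN-/- against wild type (0% and 0.658%). The backgrounds for the same rule were 2.39% and 5.96%, 8.58% and 5.03%, and 1.89% and 1.79%. Each share was thus below its background. The 1 gene lower in Col4a3-/-OPN-/- than in wild type hearts at this p was Timm17a, a subunit of the inner membrane import channel (log2 difference -0.35, adjusted p = 0.999).

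Among 32 partners and upstream regulators of the PGC-1 coactivators, 22 were positive for Col4a3-/-OPN-/- against Col4a3-/- (median 0.10) and 14 for Col4a3-/- against wild type (median -0.03). Over all probe sets tested, 57.7% were positive for Col4a3-/-OPN-/- against Col4a3-/- (median 0.04) and 45% for Col4a3-/- against wild type (median -0.02). These shares are the background for the counts of positive genes in every list described here and below. Prkab2, a regulatory subunit of the energy sensor AMPK, had 8.10, 7.96 and 6.89 in Col4a3-/- hearts against 8.08, 8.45 and 8.53 in wild type hearts. Its log2 difference was -0.70 (adjusted p = 0.542), and Col4a3-/- replicate 3 was again far below its group, without which the difference was -0.33. Hcfc1, a cofactor that binds PGC-1, differed by 0.33 in that comparison (adjusted p = 0.724), by 0.13 without Col4a3-/- replicate 3 and by 0.63 without Col4a3-/- replicate 1. Among 31 genes known to be driven by PGC-1 and the estrogen-related receptors, 22 were positive for Col4a3-/-OPN-/- against Col4a3-/- (median 0.07) and 7 for Col4a3-/- against wild type (median -0.07).

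Acadvl, an enzyme that starts the oxidation of very long chain fatty acids, had little spread within each genotype. It had 10.45, 10.51 and 10.52 in Col4a3-/-OPN-/- hearts, 10.18, 10.14 and 10.17 in Col4a3-/- hearts, and 10.38, 10.36 and 10.36 in wild type hearts. The 3 genotypes did not overlap at all, with Col4a3-/- lowest. Acadvl was named as an extreme of its list, so this separation follows in part from that choice. The share of all probe sets with such a separation was not computed. The log2 difference was 0.33 for Col4a3-/-OPN-/- against Col4a3-/- (unadjusted p = 0.00375, limma adjusted p = 0.198), short of the threshold. Pdk4, the kinase that holds back glucose oxidation, was by contrast scattered, with 10.39, 11.32 and 12.59 in Col4a3-/- hearts against 11.96, 12.34 and 12.43 in wild type hearts (log2 difference -0.81, adjusted p = 0.651). Without Col4a3-/- replicate 1 its difference was -0.29, and without Col4a3-/- replicate 3 it was -1.39.

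Of the 23 tested genes that keep and express mitochondrial DNA, other than Tfam, 6 were positive for Col4a3-/- against wild type (median -0.10) and 14 for Col4a3-/-OPN-/- against Col4a3-/- (median 0.05). Tfb1m, a mitochondrial rRNA methyltransferase, had the lowest difference of the list against wild type, -0.36 (adjusted p = 0.716), but -0.07 without Col4a3-/- replicate 3 and -0.63 without Col4a3-/- replicate 1. Dguok, a kinase that supplies deoxynucleotides inside mitochondria, had the highest for Col4a3-/-OPN-/- against Col4a3-/-, 0.43 (adjusted p = 0.492), but 0.09 without Col4a3-/- replicate 3 and 0.68 without Col4a3-/- replicate 1. Of 16 genes of protein import and folding, 8 and 7 were positive in these comparisons. Pmpca, a subunit of the peptidase that removes import signals, had 8.34, 8.35 and 8.18 in Col4a3-/- hearts against 8.62, 8.61 and 8.54 in wild type hearts, without overlap (log2 difference -0.30, adjusted p = 0.52). It was picked as an extreme of its list, and 7.9% of all probe sets tested were lower without overlap in that comparison.

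Of 19 further genes of fusion and cristae, 3 were positive for Col4a3-/- against wild type (median -0.08) and 14 for Col4a3-/-OPN-/- against Col4a3-/- (median 0.05). Oma1, the protease that cuts Opa1 under stress, differed by -0.30 in the first of these (adjusted p = 0.673), by -0.14 without Col4a3-/- replicate 3 and by -0.47 without Col4a3-/- replicate 1. Of 14 tested fission genes, 6 and 8 were positive. Inf2, a formin that builds actin where mitochondria divide, had 6.53, 6.70 and 6.45 in Col4a3-/-OPN-/- hearts against 5.76, 6.36 and 6.13 in Col4a3-/- hearts, without overlap (log2 difference 0.47, adjusted p = 0.269; 0.31 without Col4a3-/- replicate 1). Mtfp1, an inner membrane protein that promotes fission, differed by -0.82 between Col4a3-/- and wild type (adjusted p = 0.576), with 9.07, 8.47 and 7.34 in Col4a3-/- hearts against 9.33, 9.04 and 8.97 in wild type hearts, and by -0.34 without Col4a3-/- replicate 3.

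Of 17 genes of mitophagy and mitochondrial transport, 5 were positive for Col4a3-/- against wild type (median -0.07) and 13 for Col4a3-/-OPN-/- against Col4a3-/- (median 0.04). The mitophagy receptor Fundc1 had 6.37, 6.40 and 6.25 in Col4a3-/-OPN-/- hearts, 6.17, 6.02 and 5.78 in Col4a3-/- hearts, and 6.32, 6.51 and 6.20 in wild type hearts. Its Col4a3-/- hearts were below all others, a pattern whose share over all probe sets was not computed. The log2 differences were -0.35 for Col4a3-/- against wild type (adjusted p = 0.542) and 0.35 for Col4a3-/-OPN-/- against Col4a3-/- (adjusted p = 0.321). Ambra1, an autophagy regulator, differed by 0.42 in the second of these (adjusted p = 0.313). Bnip3, a mitophagy receptor induced by low oxygen, had the opposite sign to Fundc1, 0.45 for Col4a3-/- against wild type (adjusted p = 0.747), and this rested on the 10.16 of Col4a3-/- replicate 3, without which it was -0.0125. It was 0.74 without Col4a3-/- replicate 1.

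**Figure D5:**
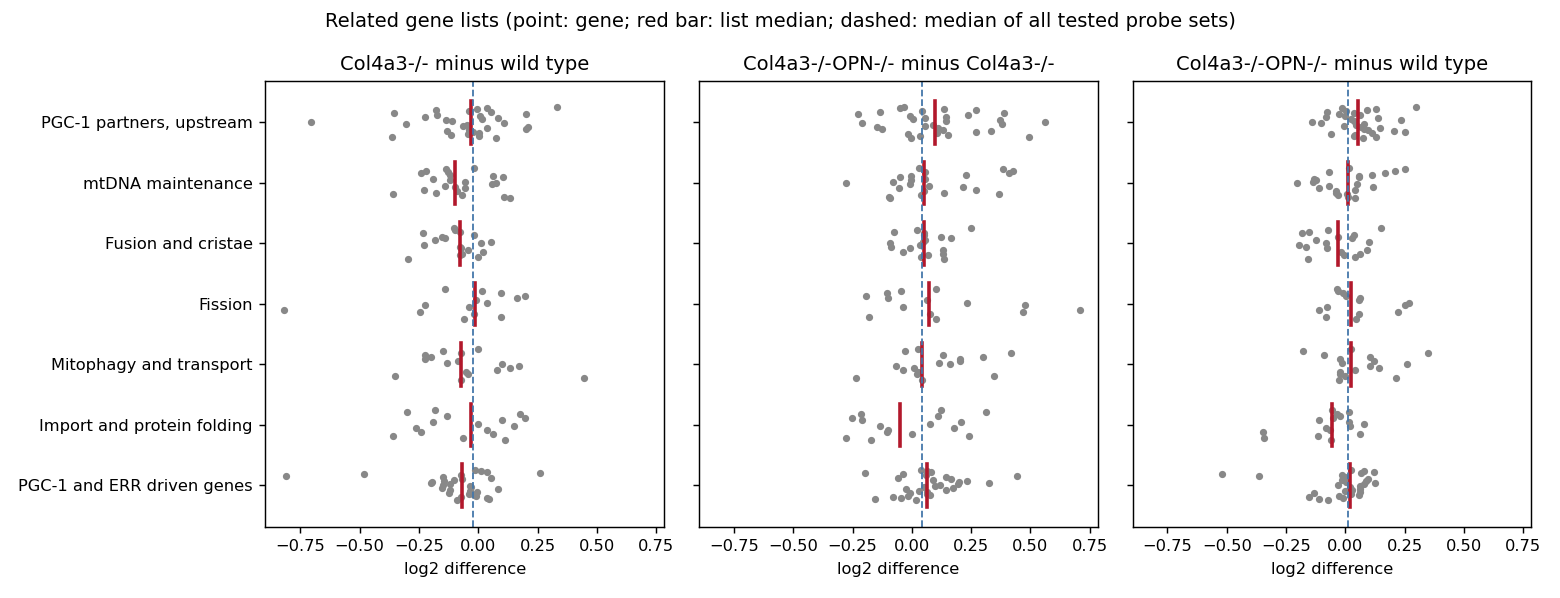
log2 differences of the genes of 7 related lists (grey points) in the 3 comparisons, with the median of each list (red bar) and the median of all tested probe sets (dashed line). The list medians lie between -0.10 and -0.01 for Col4a3-/- minus wild type and between -0.05 and 0.10 for Col4a3-/-OPN-/- minus Col4a3-/-.

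As a description, the genes whose signals ran most like each member over the 9 hearts were taken from 13084 others by Pearson's r, which shared genotype and shared differences between arrays both raise. Taking the highest r of so many genes raises it too, and values over 8 hearts reuse hearts that chose the gene. For Ppargc1a the nearest gene was Prrg3 (r = 0.956, and 0.917 over 8 hearts without Col4a3-/- replicate 3). For Ppargc1b it was Aldh1a2, an enzyme of retinoic acid synthesis (0.981 and 0.963), followed by the elastin gene Eln (0.963 and 0.954). For Esrra it was Atp5k, a subunit of ATP synthase (0.969 and 0.964), and for Esrrg Olfr700 (0.966 and 0.972). For Nrf1 it was Lin9 (0.965 and 0.93) and for Tfam Cntn2 (0.951 and 0.955). For Mfn1 it was Eif2ak2 (0.985 and 0.954), for Mfn2 Zfp13 (0.972 and 0.971), for Opa1 Wdr35 (0.991 and 0.976) and for Dnm1l Pkm, the pyruvate kinase gene (0.966 and 0.904).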

How the data were processed

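Hearts of 3 genotypes were profiled on 9 gene arrays, and the authors deposited log2 signals, computed with RMA per the submitters' processing notes; its version is not given in the sources used here. Array medians ran from 5.18 to 5.24. The members and gene lists were chosen with earlier results of these data known. Probe sets were named from the platform annotation, only where it gave 1 symbol (1814 had several and 8458 none).

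The 13650 probe sets with a mean above 5.21 were fitted together for genotype over all hearts with limma (version 3.58.1 in R 4.3.3; lmFit, then eBayes with a trend on intensity), with two-sided p-values adjusted by Benjamini-Hochberg over all of them. The fit was tested on simulated data with the same spread in every genotype, so that check does not cover the wider spread of the Col4a3-/- hearts. Precision is limited by the number of arrays, and 3 hearts against 3 allow no small exact p, so none was computed. All 10 members are named, and list genes were named from those with the highest and lowest difference and extremes at an unadjusted p under 0.05. Motifs were searched in RefSeq promoter windows of GRCm38.p6. Alternatives were other normalization, filters and moderation, weights per array, fits to the compared arrays alone, a block for the replicate number, a Y-linked covariate and each heart left out.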

Additional observations from a re-analysis of the deposited data

How the results depend on the processing

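No member passed an adjusted p of 0.05 under any of the 20 alternatives to the limma fit, and 572 of 600 member differences kept their sign. Other filters, other moderation, fits to the compared arrays alone and the replicate block leave each difference unchanged by construction. So does leaving out a heart of the genotype not compared, so many of these signs could not turn. The labels do not say whether the numbers in the sample names pair the hearts. The correlations of same-numbered hearts, as deviations from their genotype means, ran from -0.19 to 0.23. With so few hearts in each genotype these cannot settle it. With the replicate block 0 members were called. The block cannot change a difference in this balanced design, so the member median for Col4a3-/- against wild type was -0.18 as before. Leaving out 1 heart at a time gave a member median between 0.11 and 0.29 for Col4a3-/-OPN-/- against Col4a3-/-, lowest without Col4a3-/- replicate 3, between -0.24 and -0.09 for Col4a3-/- against wild type, and between -0.0076 and 0.0818 for Col4a3-/-OPN-/- against wild type, where the sign turned. Array weights and the Y-linked covariate each gave a member median of -0.09 for Col4a3-/- against wild type.

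The sign turned in some differences, of which the largest was 0.286 among the members over all hearts (Ppargc1b, Col4a3-/-OPN-/- against Col4a3-/-). For Col4a3-/- against wild type, Esrra was -0.0055 with arrays centred, Ppargc1b 0.11 with array weights and 0.10 with the Y-linked covariate, Tfam -0.0042 with array weights and Fabp3 -0.0052 with the covariate. For Col4a3-/-OPN-/- against Col4a3-/-, Esrrg was -0.0081 with quantile normalization renewed and Ppargc1b -0.0021 with array weights. For Col4a3-/-OPN-/- against wild type, Dnm1l was -0.0098 with array weights. The cause was not tested.

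Leaving out single hearts also turned signs. For Col4a3-/- against wild type the ranges were -0.0906 to 0.18 (Esrra), -0.00067 to 0.0829 (Tfam), -0.50 to 0.0942 (Ppargc1b) and -0.0125 to 0.74 (Bnip3). For Col4a3-/-OPN-/- against Col4a3-/- they were -0.23 to 0.0382 (Esrra), -0.0228 to 0.16 (Esrrg), -0.0748 to 1.02 (Pdk4), -0.14 to 0.0010 (Nrf1) and -0.53 to 0.23 (Bnip3). For Col4a3-/-OPN-/- against wild type they were -0.0492 to 0.0743 (Mfn1), -0.0431 to 0.0896 (Dnm1l), -0.31 to 0.0087 (Ppargc1a), -0.0016 to 0.28 (Ppargc1b), -0.27 to 0.0056 (Ulk1), -0.10 to 0.0079 (Esrra), -0.0842 to 0.0826 (Esrrg) and -0.26 to 0.0752 (Mtfp1). The number of arrays, and no count of reads, limits what these values can show.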
